A study of Magallana gigas with 6 samples.

Results

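XLOC loci are rows of the mantle read-count table whose identifiers start with XLOC_ rather than with Cg. The loci described here were selected on reads alone: the 158 of 4529 XLOC rows with a mean of 30 or more CPM over all 6 libraries, where CPM is the count of a row divided by the total of its library, times 1000000. The table holds 34871 rows, and the 3317 of 30342 Cg rows whose mean CPM lay between 30 and the highest XLOC mean served as the reference. The libraries came from the mantle of F2 oysters of 11 months, descended from Crassostrea angulata females crossed to Crassostrea gigas males. One group of animals had a high and the other a low content of EPA+DHA, and each group was RNA pooled from 40 oysters and sequenced as 3 libraries. The submitters call these libraries technical replicates. P-values therefore measure the spread between libraries of 1 pool per group and not the spread between oysters. For libraries of 1 RNA mix the low ones lay far apart: beyond counting noise, the coefficient of variation of the XLOC loci was 10.9% among high and 55.0% among low libraries. How the 3 libraries of a group were kept or prepared apart is not stated in the sources used here. In pooled tissue, fewer cells of a type and less RNA per cell cannot be told apart.

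The mantle is the sheet of tissue that lines the shell of a bivalve and secretes it, and it also holds muscle, nerve, blood cells and a ciliated epithelium. EPA and DHA are long-chain omega-3 fatty acids that oysters obtain largely from the microalgae they filter. XLOC is the prefix that the Cufflinks programs give to a locus put together from aligned reads. Rows of that kind can be protein-coding genes that an annotation lacks, long noncoding RNAs, transposon transcripts or outlying pieces of annotated genes. Neither the way these loci were made nor their place in the genome is stated in the sources used here. Identifiers stand without gene names in the table, and 0 of them matched the 33331 genes of the RefSeq table of assembly xbMagGiga1.1. No function, position or sequence is therefore given for any locus, and the tissue label could not be set against marker genes. Levels are in reads and not per length, so that a higher CPM of one locus than of another can come from a longer transcript.

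Libraries of the high group held 9788187 to 10250561 counted reads, and those of the low group 11703483 to 12751690. The low libraries were less alike than the high ones, and low library 3 stood apart. TMM factors, the scaling that edgeR derives from the bulk of the genes, were 0.947 to 0.961 for the high libraries, 1.12 for low library 1, 1.27 for low library 2 and 0.810 for low library 3. Results that rest on it are given with and without it. Values of single libraries are listed in the order of replicates 1, 2 and 3. All 158 loci had reads in every library, the fewest being 9, and all passed the count filter of the test. Of the 158, 112 reached 30 CPM in each of the 6 libraries and 46 fell short of it in at least 1. The median locus had 778 to 880 reads in a library, for which counting alone gives a coefficient of variation of 3.37% to 3.59%.

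The XLOC loci spanned the upper range of expression in reads. Their mean CPM ran from 30.1 to 4429, with a median of 82.6 and quartiles of 45.2 and 157. The Cg rows of the same range had a median of 63.5 CPM, and 27 Cg rows lay above the range, up to 23257 CPM. Members made up 3.49% of XLOC rows, while 11.0% of Cg rows reached 30 CPM. At the threshold, XLOC_001636 with 30.09 CPM and XLOC_028530 with 30.10 CPM were just inside, and XLOC_028820 with 28.7 CPM and XLOC_006895 with 28.1 CPM were just outside. These values chose the loci and are given as a description.

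The members, chosen as the XLOC rows with the highest mean CPM, held most of the XLOC reads. That share follows in part from the rule and is given as a description, not as a trait of XLOC rows against Cg rows. The 158 members took 81.5%, 81.9% and 81.5% of all XLOC reads in the high libraries, against 80.0%, 76.6% and 83.1% in the low libraries. The 10 members with the highest mean CPM took 51.8% to 52.9% of the members' reads in the high libraries and 45.5% to 50.9% in the low libraries. Of all reads, the members held 3.76%, 3.83% and 3.85% in the high libraries, against 2.82%, 2.80% and 3.88% in the low libraries. The mean share was 3.81% ± 0.0484 in high and 3.17% ± 0.618 in low libraries (SD, n = 3 each), so the groups overlapped through low library 3 alone. Without that library the low mean was 2.81% ± 0.0133 (SD, n = 2). The Cg rows of the same range held 65.5% ± 0.260 in high and 64.6% ± 1.27 in low libraries (SD, n = 3 each).

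The loci with the most reads kept high levels in both groups. XLOC_029055 had 4309, 4322 and 4038 CPM in the high libraries, against 4363, 5454 and 4086 CPM in the low libraries. The groups overlapped, and the log2 fold change, high over low, was 0.01 ± 0.23 (SE; adjusted p = 0.995, edgeR quasi-likelihood test). XLOC_019795 had 4701, 4987 and 4633 CPM in the high libraries against 3162, 2666 and 4104 CPM in the low libraries. In CPM every high library lay above every low library, with low library 3 nearest to them, but on the TMM scale the groups overlapped. The log2 fold change was 0.59 ± 0.34 (SE; adjusted p = 0.349, edgeR). XLOC_001809 had 2326, 2527 and 2721 CPM in the high and 1803, 1190 and 1284 CPM in the low libraries. Its groups did not overlap on either scale, and low library 1 was the nearest. The log2 fold change of 0.94 ± 0.27 (SE) missed the threshold (adjusted p = 0.0897, edgeR), though not with DESeq2 (0.0061). XLOC_036553 ran the other way in low library 3, with 1329, 1340 and 1413 CPM in the high and 1517, 1364 and 1947 CPM in the low libraries (log2 fold change -0.17 ± 0.31, SE; adjusted p = 0.773, edgeR).

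The other 6 of the 10 loci with the highest mean CPM were lower in low libraries 1 and 2 than in any high library. XLOC_031144 had 1716, 1830 and 1750 CPM in the high libraries and 680, 604 and 901 CPM in the low libraries. XLOC_031659 had 1209, 1153 and 1478 CPM in the high libraries and 657, 515 and 1060 CPM in the low libraries. In CPM both kept all high libraries above all low libraries, XLOC_031659 by a narrow gap to low library 3. On the TMM scale XLOC_031144 still did, while the groups of XLOC_031659 overlapped. XLOC_032908 had 1038, 1033 and 1260 CPM in the high libraries and 416, 651 and 1489 CPM in the low libraries, so that low library 3 was the highest of all. XLOC_021420 had 1126, 1144 and 1300 CPM in the high libraries and 479, 370 and 930 CPM in the low libraries. Its low library 3 stood between the other low libraries and the high ones. XLOC_024272 had 866, 843 and 930 CPM in the high libraries and 604, 688 and 959 CPM in the low libraries. XLOC_005407 had 840, 933 and 844 CPM in the high libraries and 663, 454 and 876 CPM in the low libraries. In both loci low library 3 reached the level of the high libraries. Of the 10 loci, 0 were called by edgeR with all libraries, with 2 at an unadjusted p under 0.05, while DESeq2 called 2 and limma-voom 1. Without low library 3, edgeR called 8 of the 10.

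**Figure D1:**
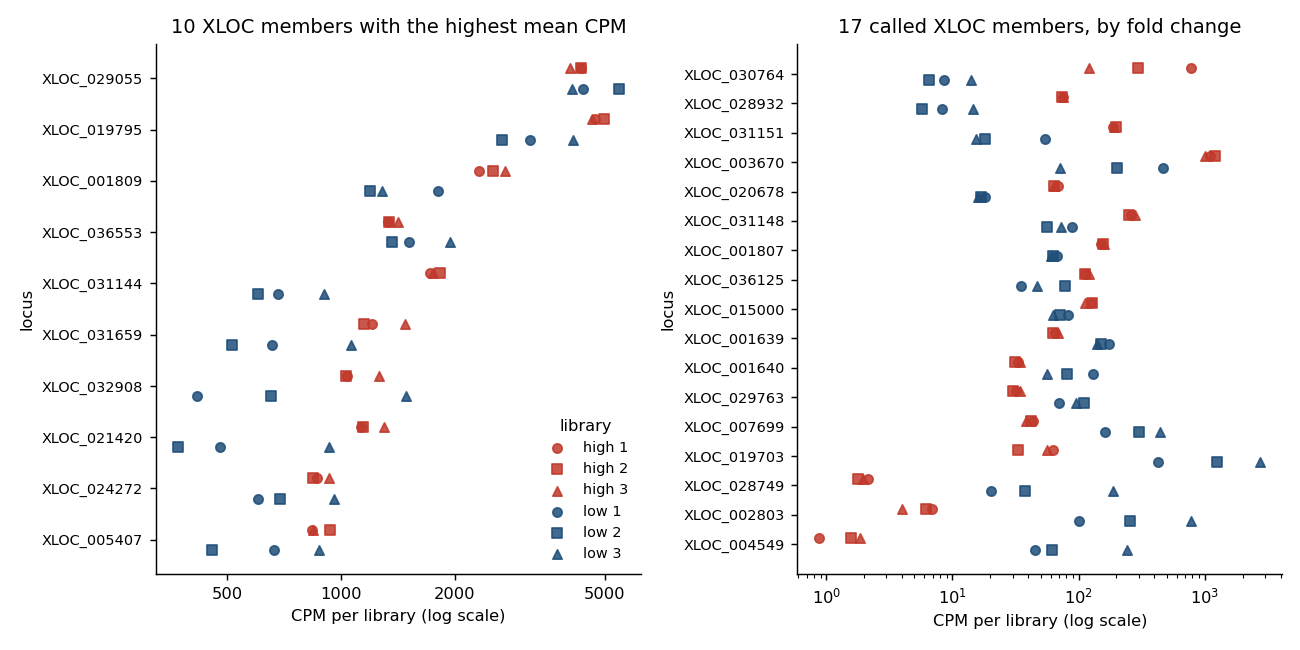
CPM per library on a log axis for the 10 XLOC loci with the highest mean CPM (left) and for the 17 loci called between the groups, ordered by log2 fold change (right). Each point is 1 library, with high EPA+DHA libraries in red above low EPA+DHA libraries in blue. In the right panel the groups do not overlap for any locus, and XLOC_030764 has a wide spread between its high libraries (778, 294 and 122 CPM).

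Relative to Cg rows of the same range, the XLOC loci were lower in low libraries 1 and 2 than in the high libraries, and level with them in low library 3. Levels on the TMM scale were compared per row with the mean of the 3 high libraries, as log2 of CPM plus 0.5. The median over the 158 XLOC loci was -0.05, -0.01 and 0.06 in the high libraries, against -0.62, -0.96 and 0.05 in the low libraries. The median over the 3317 Cg rows was -0.01, 0.0003 and 0.01 in the high libraries, against -0.05, -0.12 and 0.04 in the low libraries. Set against the Cg rows of the same library, the XLOC median was 1.49-fold lower in low library 1 and 1.79-fold lower in low library 2, and differed by 0.01 on the log2 scale in low library 3. A scaling factor of a library acts on XLOC and Cg rows alike, so these differences within a library cannot depend on it. The XLOC medians by themselves do: with CPM by library total they were -0.38, -0.56 and -0.18 in the low libraries.

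**Figure D2:**
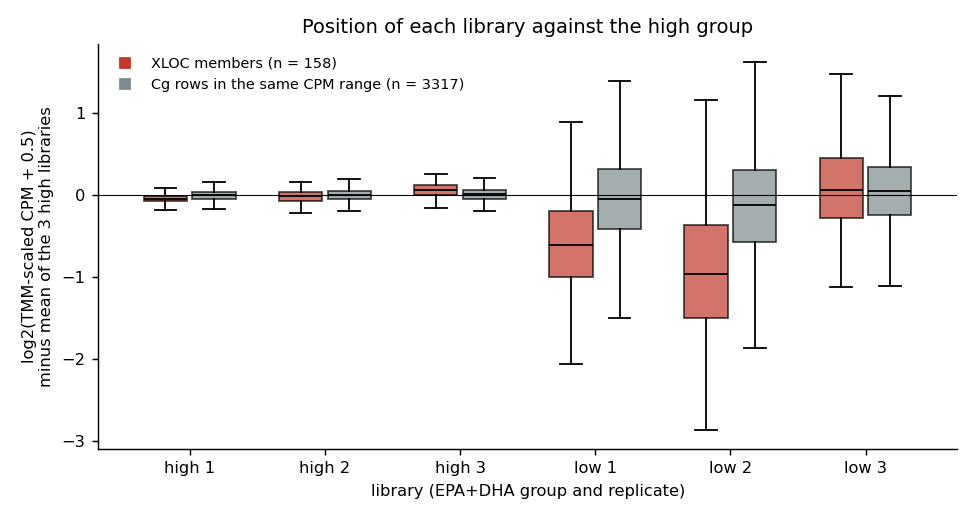
Boxes show, for each library, log2 of TMM-scaled CPM plus 0.5 minus the mean of the 3 high libraries, over 158 XLOC loci (red) and 3317 Cg rows of the same CPM range (grey). Lines are medians, boxes are quartiles and whiskers reach 1.5 interquartile ranges; the XLOC medians of the low libraries are -0.62, -0.96 and 0.05, in the order drawn.

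Counted locus by locus, 97 of the 158 XLOC loci (61.4%) had both low library 1 and low library 2 below every high library in CPM, and 19 (12.0%) had both above. Of the Cg rows of the same range, 718 (21.6%) had both below and 1664 (50.2%) both above, and the background over all rows tested was 17.2% below and 44.3% above. On the TMM scale the loci with both below were 124 (78.5%) of the XLOC loci and 1296 (39.1%) of the Cg rows, beside a background of 28.7%. Those with both above were 16 (10.1%) of the XLOC loci and 944 (28.5%) of the Cg rows, beside a background of 28.0%. Low library 3 was below the high libraries too in 70 of the 97 loci, within their range in 13 and above them in 14. The split was much the same for the 718 Cg rows, with 543 below, 74 within and 101 above. Over all rows tested it was 2320, 414 and 337 of 3071. On the TMM scale low library 3 was below in 55 of the 124 loci, within in 29 and above in 40. For the 1296 Cg rows these were 650, 169 and 477. Among the 3 low libraries, low library 3 had the highest CPM for 94 XLOC loci (59.5%) and for 603 Cg rows (18.2%), and on the TMM scale for 132 (83.5%) and 1635 (49.3%). These are descriptions, and the difference between XLOC and Cg rows was not tested. Loci of a library are not replicates of one another.

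The comparison that the study is built on set the high against the low EPA+DHA libraries. Of the 158 XLOC loci, 9 were higher in the high group, 8 were lower and 141 were not called (edgeR quasi-likelihood test, adjusted p under 0.05 over all 17809 rows tested). That is 5.70% higher and 5.06% lower, beside a background of 2.58% higher and 1.66% lower over all rows tested. Of the 3316 Cg rows of the range that were tested, 92 (2.77%) were higher and 96 (2.90%) were lower. DESeq2 called 29 loci higher and 11 lower, beside a background of 5.76% and 4.35%. The edgeR test without a count filter called 11 and 4, beside 1.79% and 1.19%. The counts of calls also hung on single libraries. Without low library 3, 101 XLOC loci (63.9%) were higher and 10 (6.33%) lower, beside a background of 15.2% and 14.0%, and 824 (24.8%) and 562 (16.9%) of the Cg rows were called. Of those 101 loci, 71 had more CPM in low library 3 than in low libraries 1 and 2. In CPM, low library 3 was below every high library for 74 of the 101, within their range for 13 and above them for 14. No share over Cg rows or all rows is given for this split, so it is a description only. CPM also put the median Cg row of the range lower in that library, at -0.19 on the log2 scale against the high libraries. On the TMM scale the median over the 158 XLOC loci there was 0.05. Without high library 1, 2 or 3, the loci called higher were 2, 1 and 2 and those called lower 0 each time (12 lower at an unadjusted p under 0.05 in each of these edgeR fits). The Cg rows of the range called higher in the same fits were 12, 10 and 16, and those called lower 2, 1 and 1. Without low library 1, 6 XLOC loci were called higher and 7 lower, against 39 and 66 Cg rows.

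The fold changes leaned to the high side across most of the list. The median log2 fold change was 0.44 over the XLOC loci (quartiles 0.01 and 0.79), 0.01 over the Cg rows (-0.28 and 0.29) and -0.06 over all rows tested. It was positive for 120 of 158 XLOC loci (75.9%) and 1682 of 3316 Cg rows (50.7%). Changes of at least 2-fold were fitted for 22 loci upward and 11 downward, which is 20.9% of the loci, against 6.39% of the Cg rows of the range, 14.6% of all rows tested and 31.0% of the tested XLOC rows under 30 CPM. With library size alone the median of all rows moved to -0.21, and the XLOC median of 0.34 then lay 0.55 above it, against 0.50 with TMM. Without low library 3 the XLOC median was 0.82 and the Cg median 0.06. In CPM, 70 XLOC loci (44.3%) had every high library above every low library and 14 (8.86%) every high library below, beside a background of 13.0% and 15.0% of all rows tested. On the TMM scale these were 55 and 15 loci, beside a background of 15.6% and 13.9%.

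**Figure D3:**
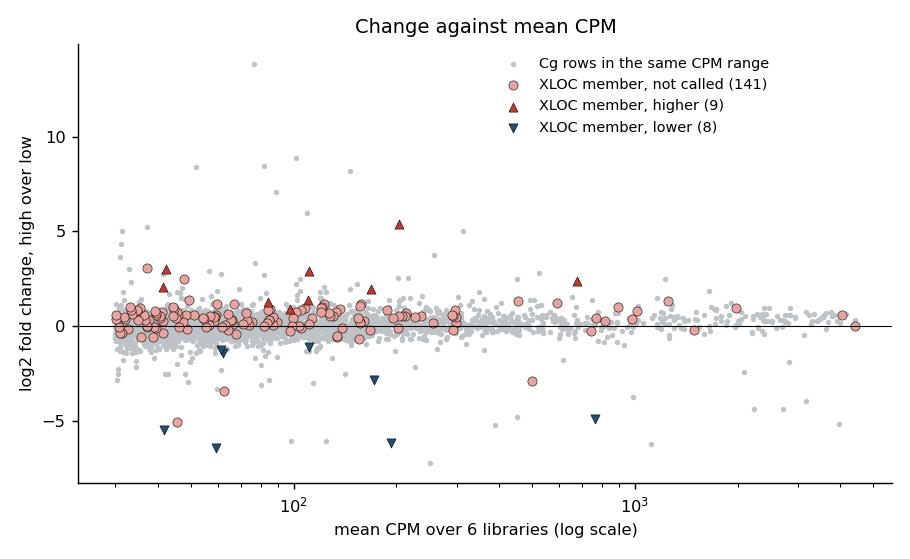
Fitted log2 fold change, high over low, against mean CPM over the 6 libraries on a log axis, for the 158 XLOC loci (coloured by call) and the Cg rows of the same range (grey). Of the XLOC loci 120 lie above the zero line; fitted values of rows without reads in a group depend on the prior count.

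The lean was present in each range of mean CPM. From 30 to 100 CPM the median log2 fold change was 0.35 over 92 XLOC loci and -0.04 over 2230 Cg rows, and from 100 to 300 CPM it was 0.52 over 50 loci and 0.06 over 709 rows. From 300 to 1000 CPM it was 0.40 over 10 loci and 0.13 over 243 rows. At 1000 CPM or more it was 0.70 over 6 loci and 0.33 over 134 rows, so the Cg medians also went up with the level. A mean over both groups can admit a locus through 1 group only. Of the 158 loci, 129 had 30 CPM or more in the mean of each group, 10 were under 30 CPM in the high group and 19 were under 30 CPM in the low group. Over the 129 loci the median log2 fold change was 0.43, with 5 called higher and 5 lower (3.88% each), and over the 2852 Cg rows of that kind it was 0.05, with 61 and 47 called.

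The 9 risen loci had mean CPM from 41.3 to 678 and log2 fold changes from 0.89 to 5.39, with a median of 2.07. Of these, 4 had a mean under 30 CPM in the low group and entered the list through the high group alone, so that they had to differ: XLOC_030764, XLOC_028932, XLOC_031151 and XLOC_020678. The one with the highest fold change was XLOC_030764. It had 778, 294 and 122 CPM in the high libraries, against 8.63, 6.55 and 14.0 CPM in the low libraries. Its lowest high library was well above all low ones, although its high libraries differed from one another more than those of any other member, with a coefficient of variation of 85.5%. The fitted log2 fold change of 5.39 ± 0.78 (SE) corresponds to a 41.9-fold higher level, with an adjusted p of 0.0145 (edgeR). Without high library 1 it was 4.46 (adjusted p = 0.0343, edgeR), and the call was lost without high library 2 (0.0686), without low library 1 (0.0597) and, with all libraries, without a count filter (0.0778). Over 13 alternatives the adjusted p ran from 1.2e-07 to 0.0778.

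XLOC_028932 was the next by fold change. It had 74.8, 74.4 and 75.3 CPM in the high libraries and 8.31, 5.75 and 14.4 CPM in the low libraries. The high libraries were nearly level, with a coefficient of variation of 0.596%, while low library 3 was the highest of the low ones. Its fitted log2 fold change of 3.01 ± 0.45 (SE) corresponds to an 8.03-fold higher level, at an adjusted p of 0.0161 (edgeR). The call was lost without high library 1 (0.0785), 2 (0.0912) or 3 (0.0806) and without low library 1 (0.0583), and over 13 alternatives the adjusted p ran from 1.0e-09 to 0.0912. The log2 fold change was 3.72 without low library 3 (adjusted p = 2.3e-05, edgeR).

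One risen locus, picked with its values in view, was close within both groups in CPM. XLOC_020678 had 68.9, 63.5 and 64.4 CPM in the high libraries and 18.2, 16.8 and 16.1 CPM in the low libraries. Low library 3 was the lowest of the low libraries in CPM, but the TMM factors make it the highest of them. The fitted log2 fold change of 2.07 ± 0.19 (SE) corresponds to a 4.20-fold higher level, with an adjusted p of 0.00236 (edgeR). It passed under each of 13 alternatives (adjusted p 2.9e-17 to 0.0271), and it is among the loci that the high group alone brought over 30 CPM. The risen locus with the most reads, also named after its values were seen, was XLOC_003670. It had 1103, 1217 and 1014 CPM in the high libraries and 466, 201 and 70.7 CPM in the low libraries, with low library 3 the lowest. Its log2 fold change was 2.40 ± 0.52 (SE; adjusted p = 0.0421, edgeR), and the call was lost in 6 of 13 alternatives, namely library size alone, no count filter, and without high library 1, 2 or 3 or low library 2 (adjusted p up to 0.175 and down to 3.5e-05).

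The 8 fallen loci had mean CPM from 41.7 to 766 and log2 fold changes from -6.43 to -1.12, with a median of -3.87. Of these, XLOC_004549, XLOC_002803 and XLOC_028749 had a mean under 30 CPM in the high group and entered the list through the low group alone, so that they had to differ. The entry of XLOC_004549 rested on low library 3, without which its mean was under 30 CPM. When the loci were chosen without that library, the list had 152 loci, with 9 called higher and 6 lower by edgeR with all libraries. XLOC_004549 had 0.878, 1.57 and 1.84 CPM in the high libraries, from 9, 16 and 18 reads. It had 44.9, 61.9 and 244 CPM in the low libraries, from 573, 775 and 2854 reads. Low library 3 was the highest. The fitted log2 fold change of -6.43 ± 0.94 (SE) corresponds to an 86.0-fold lower level, at an adjusted p of 0.0153 (edgeR). It was -4.88 without low library 3 (adjusted p = 1.5e-05, edgeR). The call was lost without high library 1 (0.103), 2 (0.107) or 3 (0.0952) and, with all libraries, with limma-voom (0.0646) and without a count filter (0.0931), and over 13 alternatives the adjusted p ran from 1.1e-08 to 0.107.

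In XLOC_002803, as in XLOC_004549, low library 3 was the highest and low library 1 the lowest of the low libraries. It had 6.83, 6.20 and 3.98 CPM in the high libraries and 101, 255 and 786 CPM in the low libraries. Its fitted log2 fold change of -6.14 ± 0.92 (SE) corresponds to a 70.6-fold lower level, at an adjusted p of 0.0168 (edgeR), and -4.61 without low library 3 (adjusted p = 0.000799, edgeR). The call was lost without high library 1 (0.107), 2 (0.118) or 3 (0.114) and also without a count filter, and the adjusted p ran from 3.2e-08 to 0.118 over 13 alternatives. The fallen locus with the most reads, named after its values were seen, was XLOC_019703, with 63.3, 33.3 and 56.4 CPM in the high and 426, 1247 and 2768 CPM in the low libraries. Its log2 fold change was -4.90 ± 0.80 (SE; adjusted p = 0.0212, edgeR), and -3.67 without low library 3 (adjusted p = 0.00581, edgeR). The call was lost without high library 1, 2 or 3 and without a count filter, with adjusted p up to 0.143 over the alternatives. Of the 8 fallen loci, 5 were highest in low library 3, and of the 9 risen loci 2 had their highest low value there. Of all 17 calls, 15, 16 and 15 were lost without high library 1, 2 and 3, 4 without low library 1, 1 without low library 2 and 0 without low library 3. With all libraries, 6 were lost without a count filter, 4 with library size alone, 2 with limma-voom, 1 with the replicate block and 0 with DESeq2.

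Spread within a group was narrow among the high libraries and wide among the low ones, for XLOC and Cg rows alike. The median coefficient of variation of CPM over 3 libraries was 6.06% among high and 27.6% among low libraries for the XLOC loci. For the Cg rows it was 5.03% among high and 25.2% among low libraries. The spread was wider in the low group for 153 of 158 XLOC loci (96.8%) and 3150 of 3317 Cg rows (95.0%). On the TMM scale the low-group median was 45.1% for XLOC loci and 22.0% for Cg rows, so that the gap between the row types in the low group depended on the scaling. Without low library 3 the medians in CPM were 16.7% for XLOC loci and 13.1% for Cg rows. The common coefficient of variation beyond counting noise, fitted by edgeR with TMM factors, was 10.9% among high and 55.0% among low libraries for the XLOC loci. For the Cg rows it was 10.2% among high and 32.8% among low libraries. The low values were 32.2% for XLOC loci and 24.2% for Cg rows without low library 3.

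**Figure D4:**
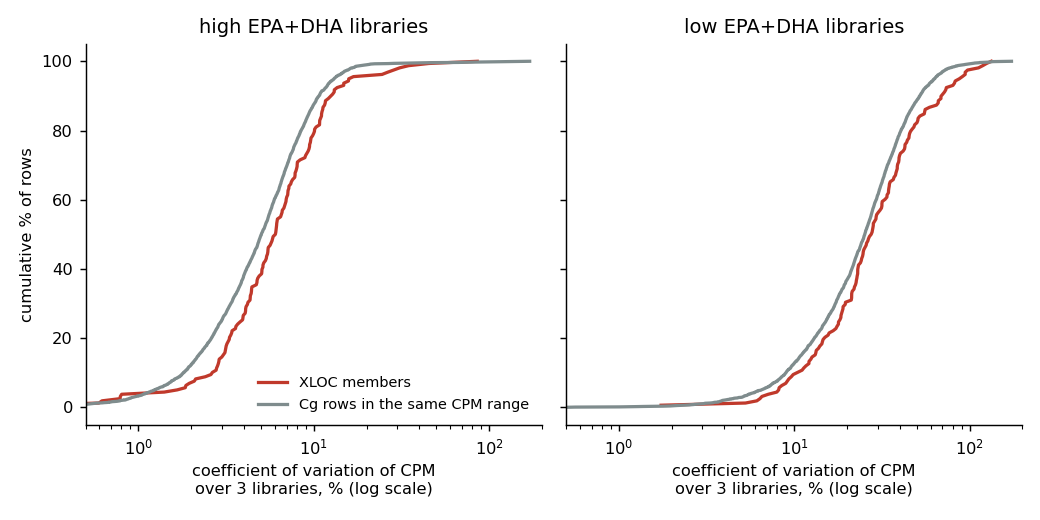
Cumulative percentage of rows against the coefficient of variation of CPM over the 3 libraries of a group, on a log axis, for high (left) and low (right) EPA+DHA libraries; red is the 158 XLOC loci and grey the Cg rows of the same range. Medians are 6.06% and 5.03% among high libraries and 27.6% and 25.2% among low libraries, for XLOC and Cg rows in that order.

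Wide spreads were rare in the high group and more common in the low group. In the high group 125 of 158 loci were under 10% and XLOC_030764 alone was over 50%. In the low group 15 were under 10% and 29 (18.4%) over 50%, against 373 (11.2%) of the Cg rows. On the TMM scale 61 loci (38.6%) were over 50% in the low group, against 356 (10.7%) of the Cg rows. XLOC_003344 had the second widest spread among the high libraries, 45.3%, and the widest among the low libraries, 133%. It had 1.46, 4.04 and 3.17 CPM in the high libraries, from 15, 41 and 31 reads, and 11.5, 29.9 and 222 CPM in the low libraries. XLOC_027124, at 125%, had 13.0, 10.7 and 11.1 CPM in the high and 16.9, 47.3 and 276 CPM in the low libraries. In both loci low library 3 held most of the low-group reads and every low library was above every high one. Both were under 30 CPM in each high library and entered the list through low library 3, without which their mean was under 30 CPM. Their direction and their wide spread in the low group therefore follow in part from the rule that chose the loci. XLOC_003344 had a log2 fold change of -5.07 ± 1.25 (SE; adjusted p = 0.0622, edgeR), and XLOC_027124 one of -3.42 ± 1.03 (SE; adjusted p = 0.101), so neither passed in the edgeR test. With DESeq2 both passed (0.00256 and 0.0358), and with the replicate block XLOC_003344 alone did (0.0262). At the other end, XLOC_025132, named after its values were seen, varied by 5.69% in CPM over all 6 libraries, the least of all members. On the TMM scale its low libraries lay further apart, with low library 3 the highest. It had 153, 155 and 169 CPM in the high libraries and 165, 147 and 149 CPM in the low libraries.

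The number in the identifier is the only other attribute that the table gives. XLOC numbers ran from 3 to 36894, and whether they follow the genome is not stated. Of the 158 members, 35 (22.2%) had another member within 5 numbers, in 14 runs, of which 9 were pairs, 4 had 3 loci and 1 had 5. Of all 4529 XLOC rows 81.3% had another XLOC row within 5 numbers. With so many more rows to count as neighbours, that share cannot be compared with the share of the 158 members. Close numbers did not go with close fold changes over the list as a whole. The 21 neighbouring pairs differed by a median of 0.59 in log2 fold change, against 0.61 over all 12403 pairs of members. The same sign was shared by 14 of the 21. With 120 of the 158 loci positive, most pairs of members share a sign whatever their numbers. Of the 17 called loci, 8 (47.1%) lay in such runs, 4 risen and 4 fallen, against 22.2% of all members. That difference was not tested.

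Single runs differed in kind, and the ones that follow were picked after their values were seen. In the run of XLOC_031144, XLOC_031148 and XLOC_031151 all 3 loci were higher in every high library. XLOC_031148 had 262, 250 and 280 CPM in the high and 88.9, 55.9 and 72.5 CPM in the low libraries, and it rose by a log2 fold change of 1.97 ± 0.27 (SE; adjusted p = 0.011, edgeR). XLOC_031151 had 188, 199 and 192 CPM in the high and 54.0, 18.2 and 15.4 CPM in the low libraries, a log2 fold change of 2.90 ± 0.43 (SE; adjusted p = 0.0156, edgeR). Both calls were lost without high library 1, 2 or 3, and XLOC_031144, at 1.34 ± 0.32 (SE), did not pass with all libraries (adjusted p = 0.0597, edgeR). XLOC_031144 did pass, with all libraries, with library size alone (0.0161), no count filter (0.0192) and the replicate block (0.0439, all edgeR), with limma-voom (0.048) and with DESeq2 (0.000947). In the run of XLOC_001807, XLOC_001809 and XLOC_001810 every high library was likewise above every low one. XLOC_001807 had 150, 157 and 160 CPM in the high and 68.0, 63.2 and 60.2 CPM in the low libraries. It was the 1 called locus of that run, at 1.41 ± 0.18 (SE; adjusted p = 0.0101, edgeR), a call lost without high library 1, 2 or 3.

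The run of 5 loci held changes in both directions. XLOC_001639 had 64.9, 63.2 and 68.9 CPM in the high and 175, 151 and 141 CPM in the low libraries and fell by 1.12 on the log2 scale (adjusted p = 0.0206, edgeR). Its direct neighbour XLOC_001640 had 33.3, 31.5 and 34.6 CPM in the high and 131, 80.6 and 56.0 CPM in the low libraries and fell by 1.26 (adjusted p = 0.0329, edgeR). Both calls were lost without high library 1, 2 or 3, that of XLOC_001639 also without low library 1, and that of XLOC_001640 also with library size alone. XLOC_001631, in the same run, had 56.9, 60.3 and 55.5 CPM in the high and 22.9, 26.7 and 45.2 CPM in the low libraries. It lay on the other side, with a log2 fold change of 0.90 that was not called (adjusted p = 0.202, edgeR). XLOC_027121 and XLOC_027124 shared a steep order in the low libraries. XLOC_027121 had 130, 123 and 130 CPM in the high libraries and 175, 380 and 2062 CPM in the low libraries. XLOC_027120, the number before, had 46.4, 42.7 and 55.0 CPM in the high and 20.2, 17.4 and 55.6 CPM in the low libraries, where low library 3 was level with the high ones. None of these 3 was called with all libraries (adjusted p of 0.546 for XLOC_027120, 0.117 for XLOC_027121 and 0.101 for XLOC_027124, edgeR).

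**Figure D5:**
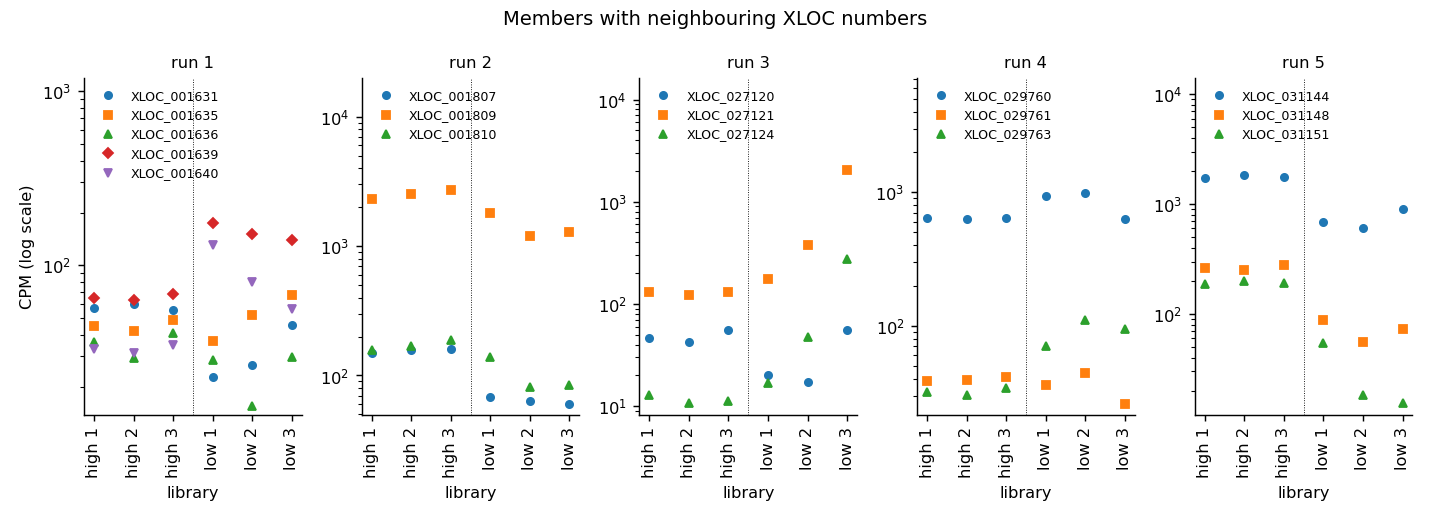
CPM on a log axis in the 6 libraries, high EPA+DHA libraries left of the dotted line and low ones right of it, for the 5 runs of 3 or more XLOC loci whose numbers follow one another within 5. Points of 1 colour are 1 locus; all loci of runs 2 and 5 are lower in every low library, while run 1 holds loci on both sides. In run 3 all 3 loci are highest in low library 3, XLOC_027120 there only just above its highest high library.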

How the data were processed

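Poly(A) RNA from mantle was made into Illumina libraries, per the labels' protocols. The deposited table gives unnormalized whole-number counts of reads for each row, in 6 libraries and 0 other columns. The sources used here name no aligner, counter, build, annotation or use of strand, so loci that overlap a gene or share reads with a copy are uncertain. The columns H1 to H3 carry the letter that the series text gives the high group, while the labels name these libraries G1 to G3. They were matched by that letter and by the number in the title, so which high library is which replicate rests on the number alone.

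CPM is the count over the library total. Members and lists were chosen with earlier results of these data known. Whole-table fits used edgeR 4.0.16 in R 4.3.3 (quasi-likelihood F test, robust, TMM, filterByExpr, Benjamini-Hochberg over 17809 rows). The SE is the log2 fold change over the square root of F. Alternatives were RLE, library size, 2 count filters, limma-voom (limma 3.58.1), DESeq2 1.42.0, the replicate block, other member rules and leaving out each library. Named loci were the 10 with the highest mean CPM, the 2 highest and 2 lowest fold changes among called loci without overlap, the 2 widest spreads per group, and those at the threshold. PCR reads are not independent molecules, so counting errors cover counting only.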

Additional observations from a re-analysis of the deposited data

How the results depend on the processing

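The median log2 fold change of the XLOC loci was 0.26 to 0.82 when 1 library was left out. Loci called higher then numbered 1 to 101 and loci called lower 0 to 10, against 9 and 8. Cg rows called higher numbered 10 to 824 and lower 1 to 562, against 92 and 96. DESeq2 called 29 loci higher, and 227 Cg rows higher and 200 lower. The count of lower loci was 4 with no count filter. The replicate block gave 14 higher loci. Same-numbered libraries correlated at 0.0575, 0.0530 and 0.163 in their deviations from the group means, and high library 1 correlated best with low library 2 (0.0781), so numbers were not taken to pair libraries. Library size alone gave a Cg median of -0.14. A threshold of 60 CPM left 53 higher and 49 lower Cg rows. Requiring 30 CPM in both groups gave 5 and 5 loci and 61 and 47 Cg rows. The members' share of reads was 4.56% in high and 3.80% in low libraries without the 20 rows with the most reads. In the high group it was 3.95% at 20 CPM, 3.53% at 60 CPM and 3.65% with 30 CPM in both groups. The median coefficient of variation of the XLOC loci in the low group was 45.1% with TMM. Fold changes of 35 of the 158 loci changed sign in at least 1 of 13 alternatives, 0 of them called, with 16 doing so without low library 3 and 3 among the named loci. XLOC_029055 was at -0.13 with library size, -0.016 with no count filter, and -0.0057, -0.086 and -0.018 without high library 2, low library 1 and low library 2, up to 0.12 without low library 3. XLOC_036553 ran from -0.40 without low library 2 to 0.24 without low library 3, and XLOC_032908 from -0.019 without low library 1 to 1.40 without low library 3. The cause was not tested, except that stricter rules hold fewer rows.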

Other observations

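XLOC rows under the threshold also had a positive median fold change. Of 1589 XLOC rows under 30 CPM that entered the test, edgeR called 94 (5.92%) higher and 16 (1.01%) lower in high than in low libraries at an adjusted p under 0.05, with a median log2 fold change of 0.29 and 1031 above 0. The background over all rows tested was 2.58% higher and 1.66% lower. In CPM, 425 of them (26.7%) had every high library above every low library and 149 (9.38%) had every one below, beside a background of 13.0% and 15.0%. A row of low level can pass the count filter through its higher group alone.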
